A study of Mus musculus with 3 samples.

Results

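The mouse genes whose symbols start with Kcn, which encode potassium channels and their auxiliary subunits, were followed in brain vessel RNA of mice aged 3 months. The set was all protein-coding Kcn genes of the mouse annotation except Kcnj8, Kcnj10, Kcnj13, Kcne2, Kcnrg and the Kcnip genes, which left 85 genes. Of these, 80 had a transcript that could be matched in the deposited tables, and 67 reached, in 1 library or more, a level of at least 1. A level here is CPM: the counts of a gene summed over its transcripts and scaled to a library of 1000000 reads. The 67 measured genes stand beside 16604 genes of all kinds that passed the same limit. Just inside it were Kcng3, Kcng2 and Kcna3, whose highest levels were 1.18, 1.41 and 1.74. Just outside it were Kcne1l, Kcnk7 and Kcnv2, at 0.559, 0.512 and 0.433. For 3 of the 67 (Kcna3, Kcng3 and Kcnj15) at least 1 library was under the limit.

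There were 3 groups with 1 library each. The Cx43-deleted library came from hGFAP-Cre/Cx43fl/fl mice on the C57BL6-BALB/c background, in which a human GFAP promoter drives Cre and the floxed gene encodes connexin 43, the main gap junction protein of astrocytes. That promoter is known to be active in astrocytes and also in radial glia, from which many neurons descend. The wild-type (WT) libraries came from C57BL6-BALB/c mice and from C57BL6 mice, and whether the WT mice carried a floxed allele or Cre is not stated in the labels. The study set the deleted mice against both WT backgrounds. With 1 library per group there is no replicate spread and no test, and the exact binomial intervals printed with folds, from the reads of a gene's most abundant transcript, cover counting error only.

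Gja1, the gene of connexin 43, stood at a level of 48.0 in the Cx43-deleted library and at 202 in each of the WT libraries, a log2 ratio of -2.06 against either. The Cx43-deleted library held 54975610 reads and was the deepest, and the WT libraries held 21170766 (C57BL6-BALB/c) and 24830975 (C57BL6). Each of the 14 endothelial, 12 smooth muscle, 12 pericyte and 12 astrocyte markers was measured and none was at 0. Where 3 values are given in a row, the first is that of the Cx43-deleted library, the next that of WT C57BL6-BALB/c and the last that of WT C57BL6. The 15 neuron markers were measured too, with summed levels of 12188, 12392 and 8944. The endothelial markers summed to 6430, 7059 and 11951. In bulk RNA of this kind, fewer cells of a type and less RNA per cell cannot be told apart.

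Potassium channels let potassium leave or enter cells and so set the resting potential and shape each electrical signal. In arterial smooth muscle their opening hyperpolarizes the cell, closes calcium channels and relaxes the vessel, and in capillaries inward rectifiers sense the potassium that active neurons release. In neurons, voltage-gated channels repolarize the action potential and leak channels hold the membrane at rest. Astrocytes use inward rectifiers to take up potassium around synapses and at the end-feet that wrap vessels.

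A pore-forming subunit carries a selectivity filter, a short run of residues with the pattern threonine or serine, any of valine, isoleucine, leucine or threonine, then glycine, any of tyrosine, phenylalanine or leucine, and glycine. Searched in the longest coding transcript of each measured gene (GENCODE M21, GRCm38), the codons of this pattern occurred once in 50 of the 67 genes, in 2 places in 10 and nowhere in 7. The 10 genes with 2 copies are the 10 measured Kcnk genes, whose channels carry a pair of pore loops per subunit. The 7 without it are auxiliary subunits: Kcnab1, Kcnab2, Kcnab3, Kcne4, Kcnmb1, Kcnmb2 and Kcnmb4. The fourth codon of the pattern read tyrosine in 47 copies, phenylalanine in 21 and leucine in 2, and it read phenylalanine in each of the 7 Kcnh genes. The stretches below are those of some genes described later, from classes with different gating. They run 5′ to 3′ on the coding strand with the 15 bases of the pattern in capitals and 12 coding bases on each side.
Kcnma1, chr14:23528401-23528439, minus strand: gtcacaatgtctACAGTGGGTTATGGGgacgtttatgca
Kcns3, chr12:11091563-11091601, minus strand: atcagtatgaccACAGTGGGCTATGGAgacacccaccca
Kcnj2, chr11:111072195-111072233, plus strand: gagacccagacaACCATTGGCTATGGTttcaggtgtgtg
Kcnk3, second pore loop, chr5:30622190-30622228, plus strand: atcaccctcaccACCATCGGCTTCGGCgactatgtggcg
Kcnt1, chr2:25894355-25894393, plus strand: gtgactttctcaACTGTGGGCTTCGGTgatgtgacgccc
Kcnh4, chr11:100750281-100750319, minus strand: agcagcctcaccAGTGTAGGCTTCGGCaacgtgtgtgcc
Kcnma1, Kcns3 and Kcnj2 use a tyrosine codon at the fourth place of the pattern, whereas Kcnt1, Kcnh4 and the second loop of Kcnk3 use a phenylalanine codon. Kcnmb1 and Kcne4, described later beside these pore subunits, have no such stretch to show.

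Levels of different genes were compared per length, as reads of a gene's most abundant transcript, scaled in the same way, per kilobase (kb). Lengths were those deposited with the counts, and for some genes they differ from GENCODE M21. The Kcnc1 transcript, for example, was deposited with 12065 bases and has 7760 exon bases in GENCODE. By level per length the measured channel genes had a median of 6.30 over the 3 libraries, against 9.52 for all genes kept. Of the 67, 22 had a mean of 10 or more and 7 a mean under 1. Among the highest were Kcnma1, the pore of the large-conductance calcium-activated (BK) channel of smooth muscle and neurons, at a mean of 102, and Kcnt1, a sodium-activated neuronal channel, at 91.0. Neither overlapped in its range with Kcnj9, whose 3 values lay between 34.4 and 43.7. Kcnj9 encodes a subunit of the G-protein-gated inward rectifiers of neurons, and its values interleaved with those of Kcnh3, a voltage-gated channel of forebrain neurons, and of Kcnab2, a cytoplasmic subunit of Kv1 channels.

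Kcnt1 stood at 113, 93.3 and 66.2 scaled reads per kb. It was lowest in the WT C57BL6 library, as were 10 of the 12 genes highest per length; the exceptions were Kcnk1, a weakly conducting 2-pore-domain channel common in astrocytes, at 30.2, 30.5 and 38.2, and Kcnj4, a strong inward rectifier of forebrain neurons, at 18.8, 22.8 and 26.4. Kcnc1, which lets neurons fire fast, had a mean of 23.9, and Kcnab3, another cytoplasmic subunit, had 21.0.

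**Figure D1:**
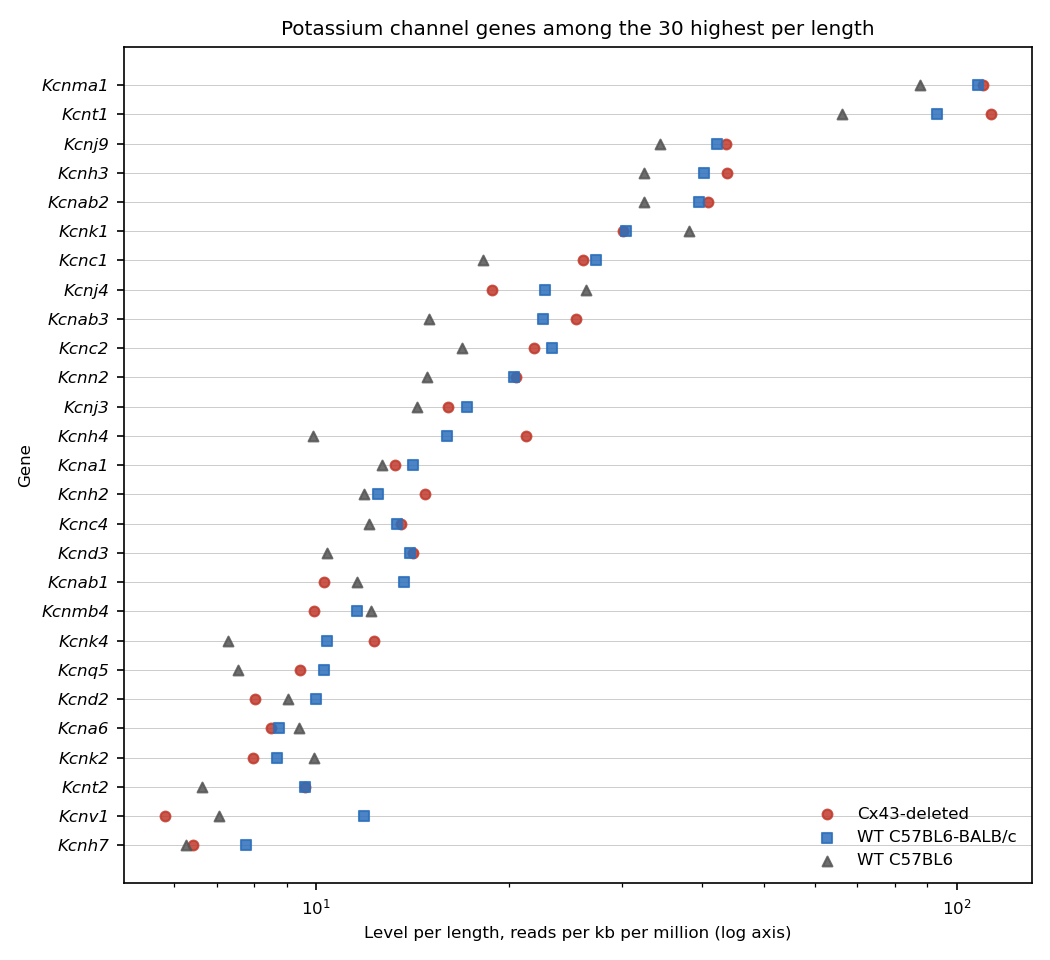
Level per length (scaled reads of the most abundant transcript per kb, log axis) of channel genes among the 30 highest, with 1 point for each of the 3 libraries. Kcnma1 and Kcnt1 sit apart at the top, and the WT C57BL6 library (triangles) is the lowest point for most of the genes.

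Kcnma1 needs its transcripts kept apart. The value of 102 comes from a transcript of 1353 bases, which held 7985, 3085 and 3012 reads. Its 4595-base transcript, the longest, gave a mean of 5.42 per kb, so the rank of the gene rests on that short transcript. The 4459-base transcript held 1345, 741 and 435 reads, or 5.62, 7.84 and 3.84 per kb. On it the Cx43-deleted library was at 0.718 of WT C57BL6-BALB/c (95% counting interval 0.656 to 0.786) and at 1.46 of WT C57BL6 (1.31 to 1.64). On the 1353-base transcript the same ratios were 1.02 (0.981 to 1.07) and 1.26 (1.20 to 1.31). The transcripts with longer deposited lengths thus placed the deleted library between the WT libraries, which differed 2.04-fold on the 4459-base transcript (1.81 to 2.30). These transcripts share exons and reads, so they are not independent of each other. Kcnj6, a G-protein-gated inward rectifier, also moved over 1.5 times per length with the longest transcript.

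**Figure D2:**
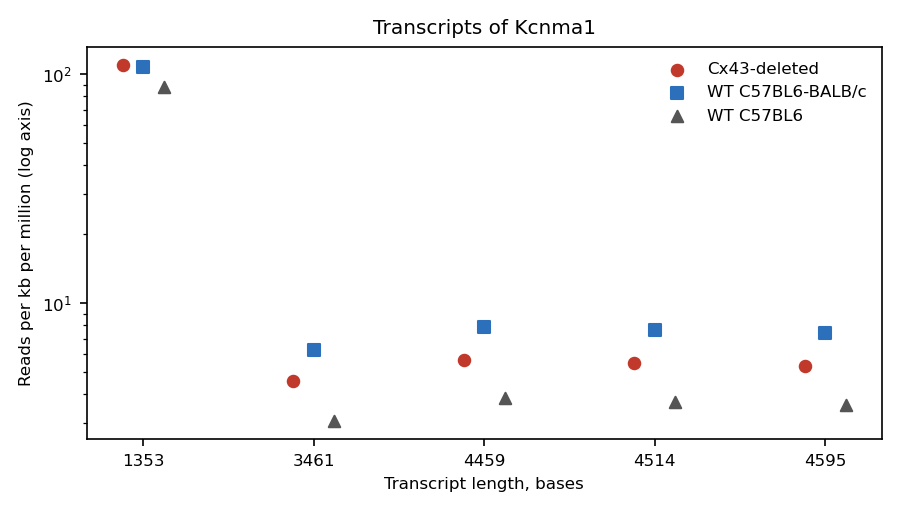
Scaled reads per kb (log axis) on each of the 5 transcripts of Kcnma1, ordered by deposited length, in the 3 libraries. The transcript deposited with 1353 bases lies far above the others, but its GENCODE model is longer. On the 4 others WT C57BL6-BALB/c is highest and WT C57BL6 lowest.

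Across the family, most measured genes had similar levels in the deleted library and in the WT library of the same background. The Cx43-deleted and WT C57BL6-BALB/c levels lay within a log2 ratio of 0.32 of each other for 44 of the 67 genes (65.7%, against 78.0% of all genes kept). Against WT C57BL6 this held for 25 (37.3%, against 51.1%), and between the WT libraries for 33 (49.3%, against 58.4%). The median log2 ratio over the 67 genes was -0.12 for Cx43-deleted against WT C57BL6-BALB/c, 0.11 for Cx43-deleted against WT C57BL6 and 0.24 for the WT libraries against each other. Over all genes kept these medians were 0.003, -0.03 and -0.03. The WT C57BL6 library was the lowest of the 3 for 33 of the 67 genes, against 6234 of the 16604.

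Few channel genes differed 2-fold, counted as a log2 ratio of 1 or more in size with a pseudocount of 0.5. The folds printed with intervals have no pseudocount, so low genes such as Kcnk10 can pass 2-fold by them and not here. Against WT C57BL6-BALB/c, Kcnj15 alone was 2-fold or more higher in the deleted library (1 of 67, with 1.05% of all genes), and Kcnmb1, Kcns3 and Kcnv1 were 2-fold or more lower (3 of 67, with 1.01% of all genes). Against WT C57BL6, Kcnh4 was higher (1 of 67, with 1.54% of all genes) and Kcns3 lower (1 of 67, with 2.91% of all genes). Between the WT libraries, Kcnk9 was 2-fold or more higher in WT C57BL6-BALB/c (1 of 67, with 1.17% of all genes) and Kcnj15 lower (1 of 67, with 2.09% of all genes). No channel gene was 2-fold above both WT libraries, where 0.428% of all genes were, and Kcns3 alone was 2-fold below both, with 0.379% of all genes. Without regard to size, 18 genes lay above both WT libraries (26.9%, against 33.2% of all genes) and 26 below both (38.8%, against 35.6%). The comparisons of the deleted library share that library, so their values are not independent.

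A finer rule took the genes whose most abundant transcript had counting intervals off 1 on the same side against both WT libraries, with a log2 difference of at least 0.32 to the nearer. By it, Kcna5, Kcnh4, Kcnk10 and Kcnu1 were above (4 of 67, 5.97%, with 4.56% of all genes), a share near the background. Kcna4, Kcne4, Kcnj2, Kcnj16, Kcnk3, Kcnmb1, Kcnq1, Kcns2 and Kcns3 were below (9 of 67, 13.4%, with 6.62% of all genes). By structural class, the 8 electrically silent Kv subunits (Kcng, Kcns and Kcnv genes, which modify other Kv channels) had no gene above both WT libraries and 4 below both. Without regard to size, 33.2% of all genes lay above both and 35.6% below both. Summed with Kcnv2, which was under the limit on low levels, the silent subunits had a level of 85.5, 120 and 93.8. Most of the difference from WT C57BL6-BALB/c in this sum lay in Kcnv1, at 25.6, 52.2 and 30.9. Kcng1, the largest part of the sum in the deleted library, stood at 36.0, 36.3 and 30.1. The 7 Kcnh genes had 3 above and 2 below, and the 14 pore subunits of Kv1 to Kv4 had 5 above and 4 below. The calcium- and sodium-activated class had the widest spread against WT C57BL6-BALB/c of the classes other than the inward rectifiers, from Kcnmb1 at -1.20 to Kcnu1 at 0.57.

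**Figure D3:**
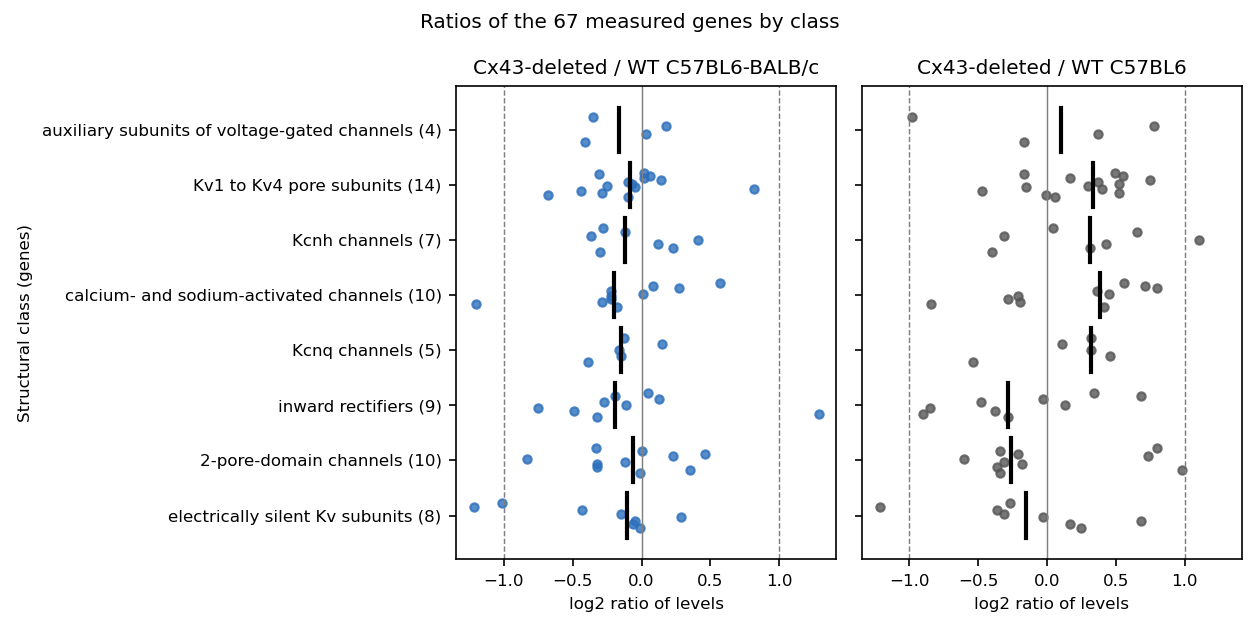
Log2 ratios of the 67 measured genes by structural class, for Cx43-deleted against WT C57BL6-BALB/c (left) and against WT C57BL6 (right). Each point is a gene, black bars are class medians and dashed lines mark 2-fold; class medians lie close to 0 on the left and further apart on the right.

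A list of 19 vascular potassium channels was chosen with earlier results of these data known, so its counts are a description and no support for a pattern of vascular genes. Of the 19, 17 were measured. Of these, 9 lay below both WT libraries and 2 above, where 26 and 18 of the 67 members and 35.6% and 33.2% of all genes did. By the finer rule 6 of the 17 were below (Kcnmb1, Kcns3, Kcnj2, Kcnk3, Kcne4 and Kcnq1) and 1 above (Kcna5), with 9 and 4 of the 67 members and 6.62% and 4.56% of all genes. The median log2 ratio of the 17 was -0.25 relative to WT C57BL6-BALB/c and -0.28 relative to WT C57BL6. It was 0.01 between the WT libraries.

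Kcnmb1, the auxiliary subunit that raises the calcium sensitivity of BK channels in smooth muscle (chr11:33963013-33973641), stood at a level of 15.4 in the Cx43-deleted library, and at 36.0 and 27.9 in the WT libraries, from 824, 763 and 709 reads. The deleted library was the lowest and the WT C57BL6-BALB/c library the highest. The deleted library was 2.34 times lower than WT C57BL6-BALB/c (95% counting interval 2.12 to 2.59) and 1.82 times lower than WT C57BL6 (1.64 to 2.01), while the WT libraries differed 1.29-fold (1.16 to 1.43). Its pore partner Kcnma1, summed over transcripts, stood at 239, 270 and 179, with the deleted library between the others.

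Kcns3, a silent subunit of Kv channels in pulmonary artery smooth muscle and in some interneurons (chr12:11090202-11151056), stood at a level of 3.93 in the deleted library against 9.81 and 9.76 in WT C57BL6-BALB/c and WT C57BL6. These levels rest on 211, 208 and 248 reads, and the WT libraries stood at 1.00-fold of each other (0.832 to 1.21). The deleted library was 2.49 times lower than WT C57BL6-BALB/c (2.05 to 3.03) and 2.48 times lower than WT C57BL6 (2.06 to 3.00).

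Kcnj2, the strong inward rectifier through which capillary endothelium and arterial smooth muscle respond to external potassium (chr11:111066164-111076821), stood at a level of 23.8 in the deleted library, with 40.4 in WT C57BL6-BALB/c and 43.5 in the WT C57BL6 library. It was 1.69 times lower than in the WT C57BL6-BALB/c library (1.55 to 1.85) and 1.82 times lower than in WT C57BL6 (1.68 to 1.98). The interval of the WT libraries against each other held 1 (0.928-fold, 0.848 to 1.02). Kcnj12, a close relative, stood at 30.8, 38.7 and 37.5, a smaller difference in the same direction.

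Kcnk3, an acid-sensitive leak channel of smooth muscle and neurons (chr5:30588170-30625271), stood at a level of 15.1 in the deleted library, with 27.2 in WT C57BL6-BALB/c and 23.0 in the WT C57BL6 library. It was 1.81 times lower than in the WT C57BL6-BALB/c library (1.62 to 2.01) and 1.53 times lower than in WT C57BL6 (1.37 to 1.70). Kcne4, a single-span subunit that damps Kv and Kcnq1 currents (chr1:78816758-78820028), stood at 11.4, 14.7 and 23.1, and here the WT libraries differed 1.57-fold (1.37 to 1.81), more than the 1.29-fold between the deleted library and WT C57BL6-BALB/c. Kcnq1, a slow voltage-gated channel found in heart, epithelia and arteries, stood at 6.34, 8.44 and 9.45. Its Kcnq1ot1 antisense neighbour overlaps 3.99% of its exon bases, and the library kit does not keep strand.

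Kcna5, a delayed rectifier of smooth muscle and microglia, went the other way. Its level was 12.5 in the deleted library, with 6.84 in WT C57BL6-BALB/c and 9.37 in the WT C57BL6 library, from 670, 145 and 238 reads. The deleted library was 1.83-fold higher than WT C57BL6-BALB/c (1.52 to 2.20) and 1.33-fold higher than WT C57BL6 (1.15 to 1.55). Kcna2, another Kv1 subunit of the vascular list, stood at 7.36, 12.1 and 7.40, so that WT C57BL6-BALB/c alone was high.

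**Figure D4:**
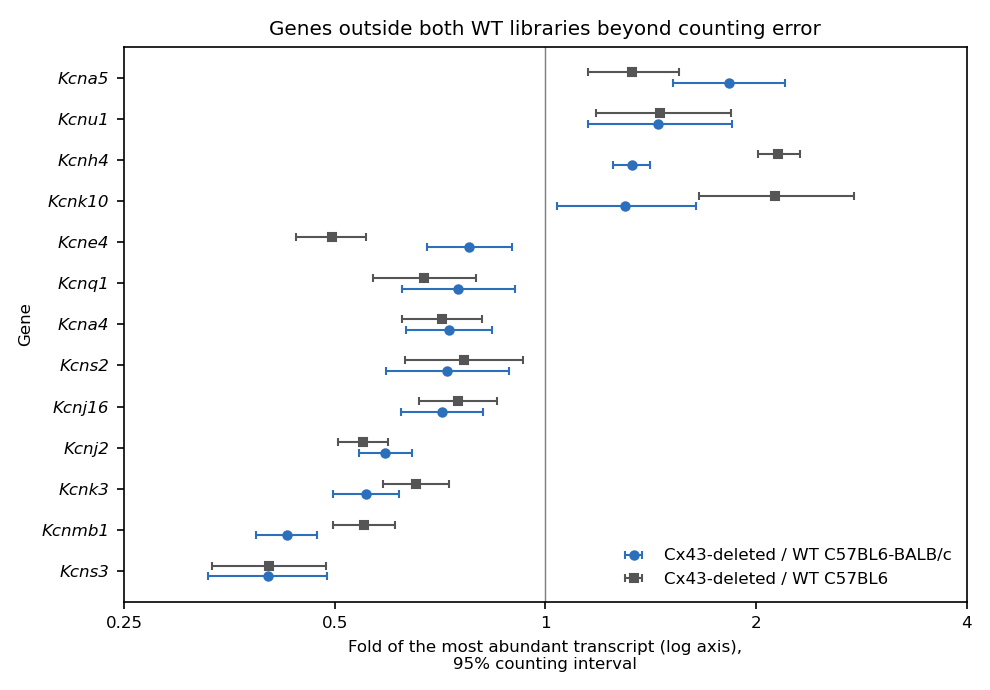
Fold of the Cx43-deleted library against each WT library (log axis) with 95% counting intervals, for the 13 genes outside both WT libraries by the finer rule. Kcns3, Kcnmb1, Kcnk3 and Kcnj2 lie furthest below 1 against WT C57BL6-BALB/c, Kcns3 and Kcne4 furthest below 1 against WT C57BL6, and Kcna5, Kcnu1, Kcnh4 and Kcnk10 lie above 1.

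The smooth muscle markers were also low in the deleted library. Of the 12, 12 were lower than in WT C57BL6-BALB/c (49.5% of all genes were), 9 lower than in both WT libraries (35.6% of all genes) and 7 below both by the finer rule (6.62% of all genes). Their summed level was 2531 in Cx43-deleted, with 4242 in WT C57BL6-BALB/c and 3049 in the WT C57BL6 library, and their median log2 ratios were -0.84 relative to WT C57BL6-BALB/c and -0.38 relative to WT C57BL6. Acta2, the smooth muscle actin, stood at 420, 818 and 573 in the same order. Each of the 12 markers was highest in WT C57BL6-BALB/c. So were Kcnmb1, Kcnk3 and, by a small margin, Kcns3, whereas Kcnj2, Kcne4 and Kcnq1 were highest in WT C57BL6. The endothelial markers had a median log2 ratio of -0.14 relative to WT C57BL6-BALB/c and -0.90 relative to WT C57BL6, and the pericyte markers summed to 3384, 3429 and 5552. The part of these markers in the levels of Kcnmb1, Kcns3, Kcnj2, Kcnk3, Kcne4 and Kcnq1 was not tested.

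**Figure D5:**
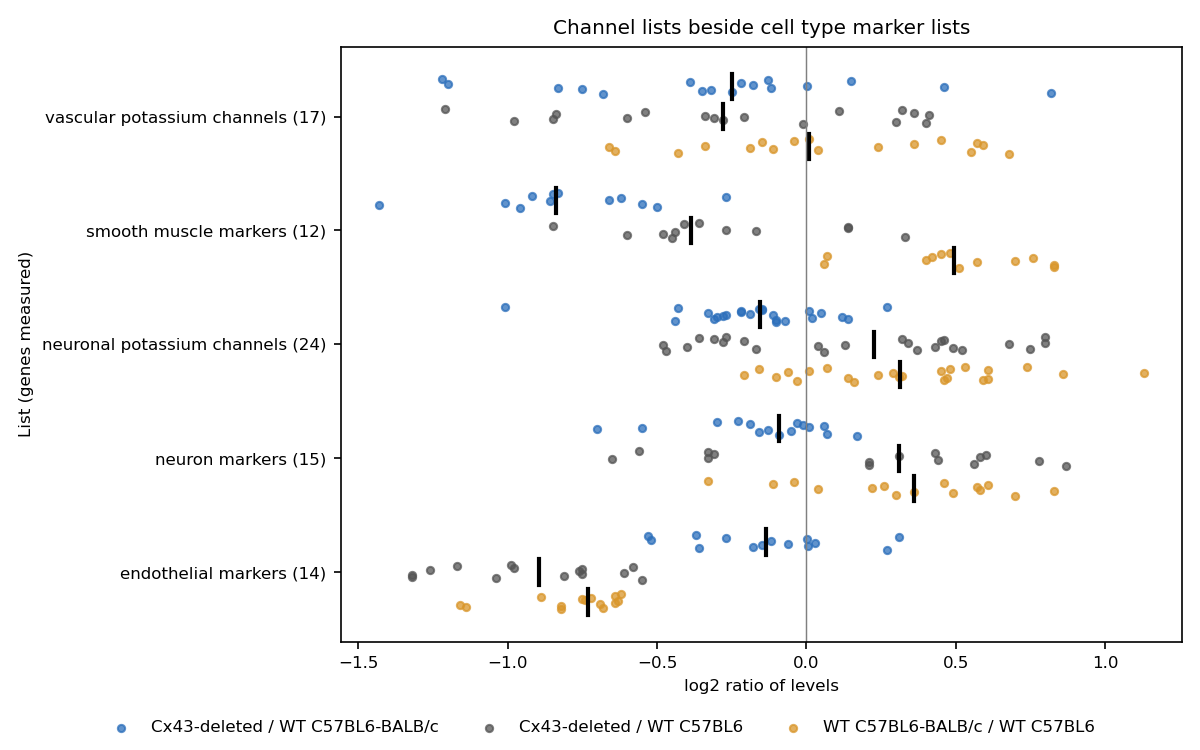
Log2 ratios of vascular and neuronal potassium channel genes beside smooth muscle, neuron and endothelial markers, for the 3 comparisons between libraries, with black bars at the medians. The smooth muscle markers lie below 0 against WT C57BL6-BALB/c for 12 of 12 genes, and neuronal channels and neuron markers lie mostly above 0 between the WT libraries.

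The stretches of 250 bases before the RefSeq start of Kcns3 and Kcnmb1, the genes furthest below WT C57BL6-BALB/c, are shown here from the GRCm38.p6 table, 5′ to 3′ on the strand of the gene. They were searched on both strands for the CArG box, the site of serum response factor in smooth muscle genes, and for TGANTCA, the site of AP-1. Motifs would be in capitals, and neither was found in these windows. Kcns3 has 2 such windows. The one shown lies mostly inside the gene as GENCODE places it, which ends at 11151056, so little of it is upstream of that end.
Kcns3, chr12:11150843-11151092, minus strand: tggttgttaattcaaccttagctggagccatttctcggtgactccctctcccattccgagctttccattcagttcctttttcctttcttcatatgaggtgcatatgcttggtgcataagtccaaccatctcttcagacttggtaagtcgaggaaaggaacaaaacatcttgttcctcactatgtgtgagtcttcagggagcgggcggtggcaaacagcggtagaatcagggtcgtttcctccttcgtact
Kcnmb1, chr11:33962763-33963012, plus strand: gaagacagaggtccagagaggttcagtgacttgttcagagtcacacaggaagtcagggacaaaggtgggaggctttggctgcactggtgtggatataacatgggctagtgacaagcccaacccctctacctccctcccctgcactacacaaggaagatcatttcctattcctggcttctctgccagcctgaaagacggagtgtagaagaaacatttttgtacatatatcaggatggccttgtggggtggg
The table held such a stretch for 47 of the 67 genes, 65 stretches in all. The CArG box occurred in 0 of the 65 and in 1.47% of the 32851 stretches of all genes, and TGANTCA in 1 of the 65, before Kcnk2, and in 6.75% of all. The G and C content was 47.2% for Kcns3 and 50.8% for Kcnmb1, near the median of 52.4% over all stretches.

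Most of the neuronal channel genes were lower in the WT C57BL6 library than in WT C57BL6-BALB/c. Of a list of 26, 24 were measured, and 19 of the 24 were higher in WT C57BL6-BALB/c than in WT C57BL6, with a median log2 ratio of 0.32. In the whole family 47 of 67 were higher in this comparison (70.1%), against 46.7% of all genes. Relative to WT C57BL6 the deleted library was higher for 15 of 24 (median 0.23), where it was for 36 of 67 (53.7%) and for 47.1% of all genes. Relative to WT C57BL6-BALB/c it was lower for 18 of 24 (median -0.15), where it was for 44 of 67 (65.7%) and for 49.5% of all genes. The neuronal list had the direction of the whole family in each of the 3 comparisons. Its 24 genes are among the 67, so the list and the family are not independent and the shared direction is partly built in. The neuron markers had medians of 0.36, 0.31 and -0.09 in these 3 comparisons, and their part in the channel levels was not tested. Kcnc1 stood at summed levels of 315, 331 and 219, with the deleted library between the WT libraries and close to WT C57BL6-BALB/c.

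Kcnt1 and Kcnh4 were highest in the deleted library. Kcnt1 stood at a level of 3110 in Cx43-deleted, with 2571 in WT C57BL6-BALB/c and 1785 in the WT C57BL6 library, log2 ratios of 0.27 and 0.80. Kcnh4, a slow voltage-gated channel of striatal and cortical neurons, stood at 168, 127 and 78.3 from 4521, 1344 and 994 reads. It was 1.33-fold higher than in the WT C57BL6-BALB/c library (interval above 1) and 2.15-fold higher than in WT C57BL6 (2.01 to 2.31), but the WT libraries themselves differed 1.62-fold (1.49 to 1.76). Kcnk10, a mechanically and thermally gated leak channel, had the same order at 6.45, 4.95 and 3.03, with 1.30-fold (1.04 to 1.64) and 2.13-fold (1.66 to 2.76). With the pseudocount its log2 ratio against WT C57BL6 was 0.98.

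Kcnv1, a silent subunit of Kv channels in cortical neurons, was high in WT C57BL6-BALB/c alone. Its level was 25.6 in the deleted library, with 52.2 in WT C57BL6-BALB/c and 30.9 in the WT C57BL6 library, from 1371, 1106 and 786 reads. The deleted library was 2.04 times lower than WT C57BL6-BALB/c (1.88 to 2.21) but 1.21 times lower than WT C57BL6 (1.11 to 1.32), and the WT libraries differed 1.69-fold (1.54 to 1.85). Kcna4, an A-type channel of axons, stood at 10.6, 14.6 and 15.0, and Kcns2, another silent subunit, at 5.29, 7.31 and 6.93. In both genes the WT libraries lay closer to each other than to the deleted library.

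Kcnk9, an acid-sensitive leak channel of neurons, gave the one 2-fold higher value between the WT libraries. It stood at a level of 6.82 in Cx43-deleted, with 8.68 in WT C57BL6-BALB/c and 3.70 in the WT C57BL6 library, and the WT libraries differed 2.35-fold (1.82 to 3.04). The deleted library was 1.84-fold above WT C57BL6 (1.47 to 2.34) and 1.27 times below WT C57BL6-BALB/c (1.06 to 1.52). Its close relative Kcnk3, described above, was lowest in the deleted library, so these related leak channels had different orders.

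Of the glial channel genes of the set, Kcnj16, Kcnk1 and Kcnk13, Kcnj16 alone was below both WT libraries by the finer rule (6.62% of all genes). Without regard to size, each of the 3 lay below both (35.6% of all genes). Kcnj16, which forms mixed channels with Kcnj10 in astrocytes, stood at a level of 24.6 in the deleted library, with 34.8 in WT C57BL6-BALB/c and 32.2 in the WT C57BL6 library. It was 1.40 times lower (1.23 to 1.60) and 1.33 times lower (1.17 to 1.51) than in these WT libraries, whose own ratio had an interval that held 1 (0.910 to 1.22). Kcnj10, which is outside the set, stood at 117, 148 and 147. Kcnk1, at levels of 59.7, 60.2 and 75.5, was at 0.992-fold of WT C57BL6-BALB/c, with an interval that held 1 (0.929 to 1.06). Kcnk13, a leak channel of microglia, stood at 4.42, 5.66 and 5.08, and its interval against WT C57BL6 held 1 (0.699 to 1.09). The 12 astrocyte markers summed to 3931, 4286 and 4799, with 8 of 12 below both WT libraries (35.6% of all genes), and the 12 microglia markers to 394, 384 and 561. The part of these markers in the levels of Kcnj16, Kcnk1 and Kcnk13 was not tested.

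Kcnu1, Kcnj15 and some genes with antisense neighbours rest on uneven, thin or shared reads. Kcnu1, the alkaline-activated channel of sperm, stood at a level of 14.0, 9.29 and 9.33, summed over 3 transcripts. In the deepest library, that of Cx43 deletion, its most abundant transcript held 334 reads, with 2148 of its 3529 bases unread. A 1446-base transcript of Kcnu1 held 333 reads there, with 68 bases unread. The coverage of Kcnu1 was thus uneven along the longer transcript. Kcnj15, an inward rectifier of epithelia, stood at 2.57, 0.755 and 5.24 summed over 13 transcripts, and a read is counted on each transcript it overlaps. Its most abundant transcript held 19, 2 and 18 reads, with 3.76-fold between Cx43-deleted and WT C57BL6-BALB/c and an interval of 0.906 to 33.2. On that transcript alone Kcnj15 fell outside the limit on low levels, so its 2-fold differences against WT C57BL6-BALB/c rest on these few reads. In 22 of the 67 genes some exon bases are shared with another gene, and in 7 over 10%, always on the opposite strand. The largest shares were 76.7% in Kcnmb4, 39.5% in Kcna6 and 31.1% in Kcnj3, whose levels are therefore uncertain.

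The 13 genes under the limit had highest levels between 0.0186 and 0.559. Kcnk16, a channel of pancreatic islets, had 1 read in the deleted library and 0 in the WT libraries, and Kcnh8 had 11, 3 and 0 reads. A count of 0 allows up to 3 reads, a level of 0.141 in WT C57BL6-BALB/c and 0.118 in the WT C57BL6 library. Another 5 genes of the set, Kcnb2, Kcnf1, Kcnj11, Kcnmb3 and Kcnn4, had no matched transcript and are not analysed here.

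Further genes were taken from a list of channel partners and a list of pumps, cotransporters and other transport genes, most of which move potassium. Of 18 partner genes, 17 were measured, with median log2 ratios of -0.09 relative to WT C57BL6-BALB/c and -0.12 relative to WT C57BL6. None was 2-fold above or below both WT libraries, where only 0.428% and 0.379% of all genes were. Abcc9, the sulfonylurea receptor of vascular ATP-sensitive channels, stood at a level of 207, 187 and 289. Of the 22 pumps, cotransporters and other transport genes, 20 were measured, with medians of 0.01 and 0.01 against the WT libraries.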

How the data were processed

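Polyadenylated RNA from brain vessels was sequenced in 3 libraries, 1 per group, grouped by the labels; no label says if a library is 1 animal or a pool. Each table deposited by the authors lists 82813 transcripts with raw read counts, per the file headers, and expresses the count also as a fraction of the library total, which gave the totals. Per the submitters' processing notes, CASAVA 1.8.2, Bowtie and mm10 were used. Reads were counted on every transcript they overlapped (counts sum to 2.55, 2.53 and 2.45 times the totals), and the TruSeq v2 kit of the labels' protocols does not keep strand.

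Of the transcripts, 69379 (83.8%) matched the GENCODE annotation of GRCm38 (M21), which gives names and positions, since the tables' coordinates are of another build; 217 on another chromosome were left out. Counts summed per gene were divided by the library total times the TMM factor (0.976, 1.00 and 1.02; edgeR 4.0.16, R 4.3.3). Log2 ratios used a pseudocount of 0.5, which understates low genes. A level of 1 is 53.6, 21.2 and 25.4 counts. Folds with exact binomial 95% intervals came from the most abundant transcript (scipy 1.17.1). The scaling and counting were tested on simulated data. The members, lists and naming rules were chosen with earlier results of these data known. Named were genes 2-fold apart in any comparison, those of the finer rule, the 12 highest per length and the highest of each class; others were named after their values were seen. Some genes that these rules name are not reported here. Alternatives were other pseudocounts, scalings, filters and transcript choices.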

Additional observations from a re-analysis of the deposited data

How the results depend on the processing

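The counts of 2-fold differences are small, and 7 of 117 values for the whole family moved by over 1.5 times under an alternative. Against WT C57BL6, the genes 2-fold higher in the Cx43-deleted library went from 1 to 2 with a pseudocount of 0.1 and to 2 with median-of-ratios size factors, by Kcnk10 at log2 ratios of 1.06 and 1.00. The genes 2-fold lower went from 1 to 2 with a pseudocount of 0.1 and to 2 with scaling by library total alone, by Kcne4 at -1.01 and -1.05. Between the WT libraries, the genes 2-fold higher in WT C57BL6-BALB/c went from 1 to 3 with a pseudocount of 0.1. With reads of the most abundant transcript only, Kcnj15 dropped under the limit on low levels. The genes 2-fold higher than WT C57BL6-BALB/c in the deleted library then went from 1 to 0, and those 2-fold lower in WT C57BL6-BALB/c than in WT C57BL6 from 1 to 0. The other 110 values stayed within 1.5 times or, for medians, kept their sign. For the 28 genes of the naming rules, 23 of 585 ratios under alternatives moved beyond their counting interval, 4 crossed the 2-fold limit (the Kcne4 and Kcnk10 values above) and 0 reversed a 2-fold difference. Among those that moved, Kcnma1 against WT C57BL6-BALB/c went to a log2 ratio of 0.03 with reads of the most abundant transcript only, from -0.18. Keeping the transcripts on another chromosome and taking the longest transcript were alternatives chosen after seeing the data. No paired analysis was possible because each group has 1 library, and for the same reason no library could be left out. Depth limits the 11 genes with under 100 reads in WT C57BL6-BALB/c, the shallowest library.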
